A study of Mus musculus with 10 samples.

Results

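A set of 6 stress and growth-arrest genes was followed across muscle and cultured muscle cells: Gadd45a, Gadd45b, Gadd45g, Cdkn1a, Cdkn1b and Cdkn1c. They were taken as the array probes, control spots left out, whose RefSeq accession belongs to one of these genes, and they are 6 of the 19752 named genes on the array. Their RNA was measured with single-colour Agilent mouse arrays (dye Cy3) in 5 groups of 2 arrays. The first group was muscle of male C57BL/6J mice carrying the hSA::Fv2E-PERK transgene, collected 12 h after an intraperitoneal dose of AP20187 at 1 ng/g, and the second was muscle of the same transgenic line 12 h after vehicle. The third was muscle of uninjected male C57BL/6J wild type mice. The other two were C2C12 cells, a mouse myoblast line, that carry Fv2E-PERK and had been differentiated for 3 days in 2% horse serum. One of them received AP20187 at 100 nM and the other received its ethanol vehicle, and both were harvested after 12 h.

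Fv2E-PERK joins the kinase part of PERK to a module that AP20187 brings together in pairs, so that the compound switches the kinase on, and the hSA promoter, of human skeletal actin, drives the transgene in skeletal muscle. Every C2C12 group and both injected mouse groups carry the fusion, and the groups analysed here hold no wild type animals or plain C2C12 cells given AP20187. Ages, the muscle taken, whether the C2C12 line is 1 clone and whether the 2 arrays of a group come from separate animals or cultures are not given in the labels used here. The p-values therefore measure only the spread between these arrays, which may be technical.

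PERK phosphorylates the translation factor eIF2alpha, and this raises the transcription factor ATF4 and, further on, CHOP, the product of Ddit3. The 3 Gadd45 proteins are small stress-induced proteins that bind PCNA, Cdk1 and p21, and bind the kinase MEKK4, the product of Map3k4, at the head of the p38 and JNK pathways. Gadd45a is known as a gene that ATF4 raises in muscle atrophy and after denervation. Cdkn1a, Cdkn1b and Cdkn1c encode p21, p27 and p57, which bind and restrain cyclin-dependent kinases. In muscle, p21 and p57 are known for the cell cycle exit of differentiating myoblasts, and Cdkn1c is an imprinted gene expressed mainly from the maternal copy.

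Replicate arrays correlated at r between 0.992 and 0.996 over the probes that were well above background on every array, so dimmer probes are left out. Between 41.0% and 53.1% of gene spots were well above background on an array. Outlier flags covered 2.37% and 2.00% of gene spots on the C2C12 AP20187 arrays, against at most 0.376% on every other array. The files record 3 scan sessions, of which 1 held both wild type arrays, 1 the 4 transgenic muscle arrays and 1 the 4 C2C12 arrays, so that for transgenic against wild type the session, the genotype and the injection cannot be told apart. In C2C12 the AP20187 arrays lay in the second row of the slide and the vehicle arrays in the first, and row and treatment cannot be told apart there either. In transgenic muscle the vehicle arrays lay in column 1 and the AP20187 arrays in columns 3 and 4, so column and treatment cannot be told apart. All 7 skeletal muscle markers were well above background in every group, and the 6 that no array lacked had a summed log2 level of 12.4 to 13.0 on the muscle arrays and 8.44 to 8.88 on the C2C12 arrays. In whole muscle, fewer cells of a type and less RNA per cell cannot be told apart.

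The stretches before the starts of Gadd45a, Gadd45g and Cdkn1a are shown because these are the genes that changed when AP20187 was given to transgenic mice. Each is the 250 bases before an annotated start, from RefSeq on GRCm38.p6, read 5′ to 3′ on the gene's own strand. They lie at chr6:67037408-67037657 on the minus strand for Gadd45a, and on the plus strand at chr13:51846425-51846674 for Gadd45g and at chr17:29090729-29090978 and chr17:29093519-29093768 for the upstream and downstream starts of Cdkn1a, which are 2790 bases apart. Capitals mark matches, on either strand, to the letters named in the paragraph that follows.
Gadd45a: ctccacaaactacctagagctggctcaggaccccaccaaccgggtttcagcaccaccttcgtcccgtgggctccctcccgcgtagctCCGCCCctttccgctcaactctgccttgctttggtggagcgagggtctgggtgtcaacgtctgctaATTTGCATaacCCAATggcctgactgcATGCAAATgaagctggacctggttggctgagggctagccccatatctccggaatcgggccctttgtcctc
Gadd45g: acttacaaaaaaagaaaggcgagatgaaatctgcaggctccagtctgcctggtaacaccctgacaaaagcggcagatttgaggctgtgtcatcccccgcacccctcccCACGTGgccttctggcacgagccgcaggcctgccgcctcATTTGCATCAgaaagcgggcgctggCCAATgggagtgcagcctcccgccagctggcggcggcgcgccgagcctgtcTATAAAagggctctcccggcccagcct
Cdkn1a, upstream start: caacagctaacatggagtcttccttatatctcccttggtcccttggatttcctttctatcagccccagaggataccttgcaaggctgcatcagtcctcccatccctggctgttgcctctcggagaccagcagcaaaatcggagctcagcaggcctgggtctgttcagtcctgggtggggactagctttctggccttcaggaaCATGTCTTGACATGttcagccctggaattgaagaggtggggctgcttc
Cdkn1a, downstream start: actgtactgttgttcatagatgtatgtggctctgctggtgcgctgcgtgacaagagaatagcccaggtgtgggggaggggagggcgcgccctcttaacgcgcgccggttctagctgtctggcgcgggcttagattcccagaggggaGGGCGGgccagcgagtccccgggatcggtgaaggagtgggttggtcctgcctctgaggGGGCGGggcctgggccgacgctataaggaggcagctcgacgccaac

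The search covered the octamer ATTTGCAT, the CCAAT box, TGATGNAA (the core of elements shared by C/EBP and ATF factors), the cyclic AMP element TGACGTCA, the GC box GGGCGG, the TATA box TATAAA, the E-box CACGTG and CATGNNNNNNCATG, which has the letters of a paired p53 core. The last of these was added after the Cdkn1a window had been read. Gadd45a held the octamer on its own strand from -97 to -90 and the reverse, ATGCAAAT, from -70 to -63, with a CCAAT box between them at -86 to -82. Of all 32851 windows of this length in the table, 1.6% held the octamer and 33.8% a CCAAT box. Gadd45g held the octamer from -103 to -96, and this overlapped a match to the C/EBP and ATF core, on the other strand, from -101 to -94. That core was present in 3.45% of windows. The upstream Cdkn1a window held the paired p53 core from -48 to -35, against 0.49% of all windows. The downstream one held GC boxes, present in 32.7% of windows, from -104 and from -46. Gadd45g and Gadd45b each had a TATA box (12.4% of windows) and an E-box (6.02%), Gadd45a and Gadd45b each had a GC box on the other strand, and Cdkn1b had a pair of CCAAT boxes and a GC box. None of the windows of the 5 genes searched held TGACGTCA, which 1.55% of all windows did. These are matches of letters and not shown to be sites.

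**Figure D1:**
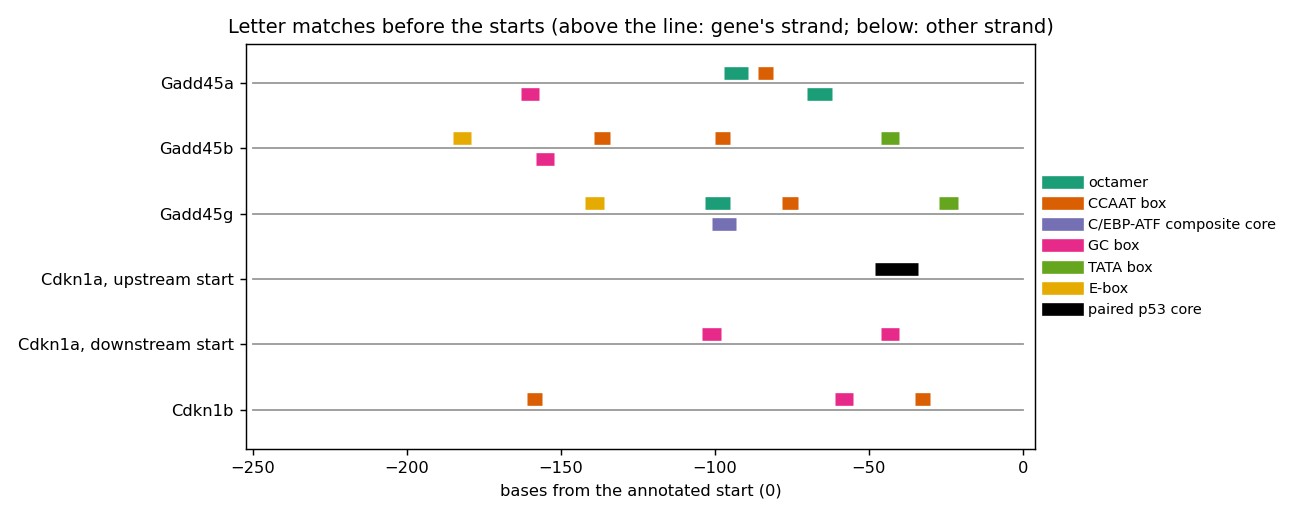
Position of each letter match in the 250 bases before the annotated start of Gadd45a, Gadd45b, Gadd45g, Cdkn1a (upstream and downstream start) and Cdkn1b, in bases from the start, with matches on the gene's strand above the line and on the other strand below it. The octamer stands on both strands of Gadd45a and overlaps the C/EBP and ATF core in Gadd45g, and the paired p53 core stands before the upstream Cdkn1a start, from -48 to -35.

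Levels are given below as log2 of the background-subtracted intensity minus the 75th percentile of the same array, so that a value of a gene is compared only with its own value on other arrays. The genes' order of groups differed from gene to gene. Gadd45a was highest in AP20187 transgenic muscle, with a mean of 5.46, followed by vehicle transgenic muscle at 4.32. Next came AP20187 C2C12 at 3.93, vehicle C2C12 at 2.76 and wild type muscle at 1.64. No neighbouring groups in that order overlapped. Between AP20187 and vehicle the same held for 68.4% of all genes tested in transgenic muscle and 46.6% in C2C12. Gadd45b, Gadd45g and Cdkn1a were instead highest in C2C12, where the AP20187 and vehicle arrays of Gadd45b and of Gadd45g overlapped. Cdkn1b spanned the narrowest range, between group means of 3.79 in AP20187 transgenic muscle and 2.84 in AP20187 C2C12. Cdkn1c was detected in muscle but was not well above background on any of the 4 C2C12 arrays.

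AP20187 given to transgenic mice raised 3 of the 6 genes in muscle within 12 h: Gadd45a and Cdkn1a a little over 2-fold and Gadd45g less. Neither Gadd45b, Cdkn1b nor Cdkn1c passed the test, which was limma with Benjamini-Hochberg adjustment over 13543 genes at 0.05. Of all those genes 29.3% passed, 14.3% as higher and 15% as lower. The median log2 difference was 0.54 over the 6 genes and -0.11 over all genes tested.

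Gadd45a, the ATF4-responsive member of its family, had levels of 5.14 and 5.77 on the AP20187 arrays, against 4.38 and 4.26 on the vehicle arrays of transgenic muscle. Both AP20187 arrays were above both vehicle arrays. The difference was 1.14 (SE 0.21), or 2.20-fold higher, with an adjusted p of 0.00744 in limma.

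Gadd45g, a family member known for growth arrest in differentiating cells, had levels of 5.70 and 6.10 with AP20187, against 5.09 and 5.32 with vehicle. The arrays did not overlap, and the nearest pair stood 0.38 apart. It was 1.62-fold higher with AP20187 (log2 0.70, SE 0.19, adjusted p 0.0316).

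Cdkn1a, which encodes p21, had levels of 3.90 and 3.93 with AP20187, against 2.76 and 2.57 with vehicle. The AP20187 arrays were the closest pair of the 3 muscle groups for this gene and lay wholly above vehicle. The fold was 2.38 (log2 1.25, SE 0.35, adjusted p 0.0321). This SE is shared with the wild type arrays, which lay 1.31 apart for this gene. In a limma fit of the 4 transgenic arrays alone the SE was 0.11 (adjusted p 0.000761).

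The other members moved less. Gadd45b, a stress-induced gene that also responds to NF-kappaB, had levels of 2.92 and 2.50 with AP20187, against 2.28 and 2.38 with vehicle, a difference of 0.38 (SE 0.15, adjusted p 0.0862). Cdkn1b, the gene of p27, had 3.64 and 3.93 against 3.42 and 3.62, a difference of 0.26 (SE 0.12, adjusted p 0.143). Cdkn1c, the gene of p57, had 3.72 and 3.44 against 3.89 and 3.75, a difference of -0.24 (SE 0.15, adjusted p 0.244). The groups of these 3 genes did not overlap either, but the same held for 68.4% of all genes tested. Gadd45a passed under 16 of 17 alternative settings, with an adjusted p of 0.0509 when the second vehicle array was left out, whereas Gadd45g passed under 11 and Cdkn1a under 9. With the values deposited by the authors, 1 of the 6 genes passed (Gadd45a), and leaving out the first or the second vehicle array left 1 and 0.

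**Figure D2:**
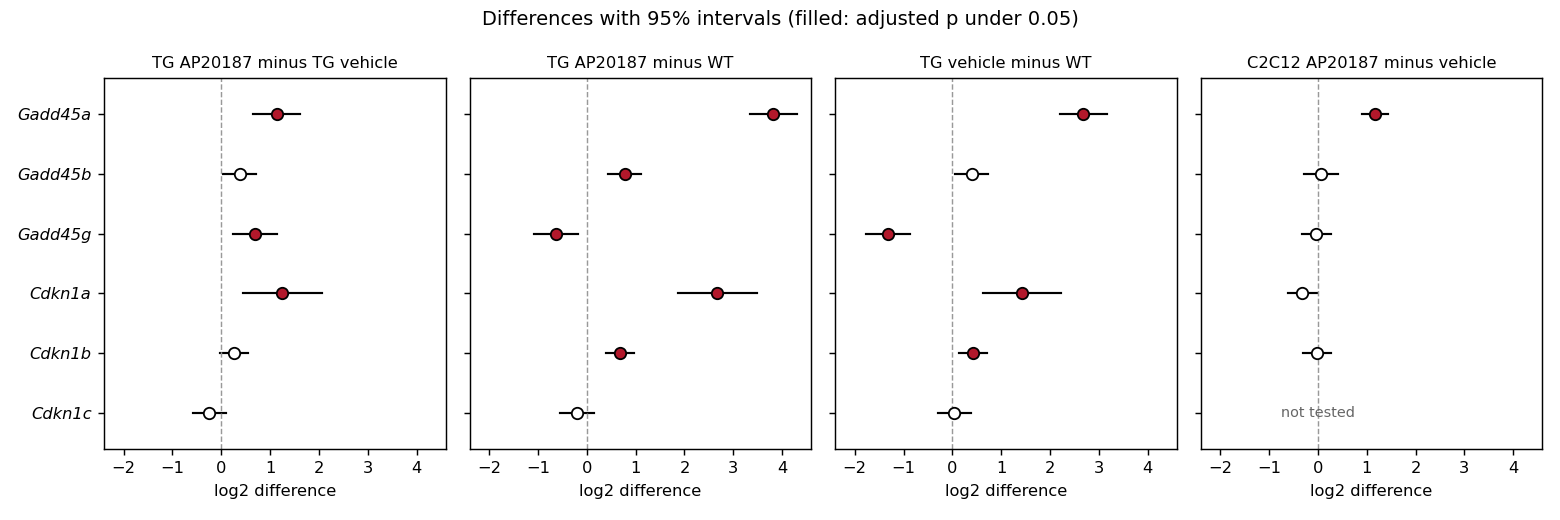
Log2 difference (horizontal axis) of each gene with its 95% interval for AP20187 against vehicle in transgenic muscle, AP20187 transgenic against wild type muscle, vehicle transgenic against wild type muscle, and AP20187 against vehicle in C2C12. Filled points passed at an adjusted p under 0.05. Gadd45a is filled in all 4 panels, Gadd45g lies above 0 in the first panel and below 0 in the second and the third, and Cdkn1c is filled in none.

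Transgenic muscle given vehicle in place of AP20187 also differed from muscle of uninjected wild type mice, which was scanned in another session. In vehicle muscle 3 genes were higher than in wild type (Gadd45a, Cdkn1a and Cdkn1b) and 1 was lower (Gadd45g), where 38.3% of the 13543 genes tested passed, 25.7% as higher and 12.6% as lower. Gadd45a levels of 4.38 and 4.26 in vehicle transgenic muscle stood against 1.45 and 1.83 in wild type muscle. That is 6.40-fold higher (log2 2.68, SE 0.21, adjusted p 0.000159). Between AP20187 and vehicle, by comparison, the log2 difference was 1.14.

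Gadd45g moved the other way. Its levels were 5.09 and 5.32 in vehicle transgenic muscle, against 6.27 and 6.78 in wild type muscle. Both transgenic arrays lay below both wild type arrays, 2.50-fold lower on average (log2 -1.32, SE 0.19, adjusted p 0.00177). These 2 groups did not overlap, in either direction, for 71.3% of all genes tested.

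Cdkn1a levels were 2.76 and 2.57 in vehicle transgenic muscle, against 1.90 and 0.58 in wild type muscle. The 2 wild type arrays were 1.31 apart on the log2 scale, a gap that only 0.849% of the genes tested reached, while the 10 spots of this probe had an SD of 0.0617 and 0.0630 within each of these arrays. Cdkn1a was 2.69-fold higher in vehicle transgenic muscle (log2 1.43, SE 0.35, adjusted p 0.0151). The log2 difference was 2.08 without the first wild type array and 0.77 without the second, and it passed both times.

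Cdkn1b had 3.42 and 3.62 in vehicle transgenic muscle, against 3.10 and 3.11 in wild type muscle, with a difference of 0.42 (SE 0.12, adjusted p 0.0311) that passed under 8 of 16 alternative settings. Gadd45b had 2.28 and 2.38 against 1.86 and 2.01 and did not pass (difference 0.40, SE 0.15, adjusted p 0.0653). For Cdkn1c the arrays overlapped, at 3.89 and 3.75 against 3.96 and 3.60. Its difference of 0.04 (SE 0.15) had an adjusted p of 0.857.

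AP20187 transgenic muscle was also set against wild type, a comparison that shares its arrays with both of the others. Here 4 of the 6 genes were higher and Gadd45g was lower, beside 52.2% of all genes that passed, 29.6% as higher and 22.6% as lower. Gadd45a was 14.1-fold higher (log2 3.82, SE 0.21, adjusted p 1.22e-05) and Cdkn1a 6.38-fold higher (log2 2.67, SE 0.35, adjusted p 0.000603). The Cdkn1a log2 difference was 3.33 without the first wild type array and 2.02 without the second, and it passed both times. Gadd45b was 1.71-fold higher (adjusted p 0.00330) and Cdkn1b 1.61-fold higher (adjusted p 0.00280). Gadd45g was 1.54-fold lower (log2 -0.63, SE 0.19, adjusted p 0.0268), since its AP20187 arrays lay between those of vehicle and wild type, and it passed under 11 of 16 alternatives. Of the log2 distance between AP20187 and wild type muscle, 70.2% was present with vehicle for Gadd45a and 53.3% for Cdkn1a. For Cdkn1a this share moves with the wild type array used, since those arrays were 1.31 apart. The share was 83.98% for Trib3, an ATF4 target, 38.4% for Ddit3 and 4.15% for Myc.

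In C2C12 cells Gadd45a was higher with AP20187, and it was the only one of the 5 genes tested that passed. Cdkn1c could not be tested there. The 1 of 5 stands beside 0.526% of all 11409 genes tested, 0.324% as higher and 0.202% as lower. Gadd45a levels were 3.97 and 3.88 with AP20187, against 2.85 and 2.67 with vehicle. Both AP20187 arrays were higher than both vehicle arrays, the nearest by 1.03, and groups did not overlap, in either direction, for 46.6% of all genes tested. The change was 2.24-fold (log2 1.16, SE 0.12, adjusted p 0.000595), and it ranked beside those of Fgf21 (3.97-fold, adjusted p 0.000188), Atf3 (2.71-fold, adjusted p 0.000568) and Trib3 (2.05-fold, adjusted p 0.0113), the 3 genes that passed out of 18 tested in the list of ATF4 and CHOP regulators and targets.

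Cdkn1a had levels of 6.40 and 6.60 with AP20187, against 6.71 and 6.94 with vehicle, lower on both arrays but with an adjusted p of 0.312 (log2 -0.32, SE 0.14). Gadd45g had 7.72 and 7.62 against 7.60 and 7.81, overlapping, with a difference of -0.03 (95% interval -0.32 to 0.27). Cdkn1b had 2.73 and 2.94 against 2.91 and 2.80, also overlapping, with a difference of -0.02 (interval -0.30 to 0.26). Gadd45b had 3.86 on the AP20187 array that was kept, against 3.70 and 3.89 with vehicle. Its spot on the first AP20187 array carried an outlier flag and was left out of the fit. With that spot kept, at 3.70, the difference changed sign to -0.02.

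Gadd45a did not pass in C2C12 with the deposited values (adjusted p 0.0642) or without a variance trend (0.0629), and it passed under the other 13 alternatives. Other markers moved with AP20187 in these cells: 4 of 5 adipocyte genes were higher, among them Cfd, 12.9-fold, and Fabp4, 13.0-fold. Both were well above background on 2 AP20187 arrays and on 1 of the 2 vehicle arrays. The summed adipocyte level was 2.94 to 3.45 with AP20187 against -0.48 to 0.01 with vehicle. Of 6 skeletal muscle genes tested 4 did not pass, and the other 2, Pvalb and Myh4, were 7.54-fold and 3.56-fold lower. Their part in the change of Gadd45a was not tested.

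The Gadd45a change with AP20187 was of like size in muscle and in C2C12, 1.14 and 1.16. The difference between the changes, muscle minus C2C12, was -0.03 (SE 0.26, 95% interval -0.61 to 0.56, adjusted p 0.960 in the limma fit of all 10 arrays). For Cdkn1a the difference was 1.57 (SE 0.43, adjusted p 0.0405), beside 12% of 14094 genes that passed, 8.01% as higher and 4.02% as lower. It was above 0 under all 20 alternative settings and passed under 7 of them. For Gadd45g it was 0.72 (SE 0.25, adjusted p 0.0896), for Gadd45b 0.32 and for Cdkn1b 0.28, and none of these passed. For Cdkn1c no difference is read, since its C2C12 levels, -1.85 and -2.46 with AP20187, against -3.08 and -3.02 with vehicle, were all not well above background. Doses and routes differed between mice and cells.

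Levels of these genes also differed between muscle and culture, which were scanned in different sessions. Wild type muscle and vehicle C2C12 differed for 5 of the 6 genes, near the share of all genes. Of 14292 genes 78.8% passed, 37.6% as higher and 41.2% as lower in muscle. Cdkn1a was the widest of those measured on both sides, with 1.90 and 0.58 in wild type muscle, against 6.71 and 6.94 in vehicle C2C12. It was 48.0-fold lower in wild type muscle (log2 -5.59, adjusted p 2.37e-08). The log2 difference was -6.24 without the first wild type array and -4.93 without the second, and on the second probe of this gene, described further on, the fold was 20.1. Gadd45b was 3.65-fold lower, Gadd45g 2.26-fold lower and Gadd45a 2.18-fold lower in wild type muscle. Cdkn1c ran the other way and was at least 88.2-fold higher in wild type muscle (adjusted p 1.90e-10). This bound sets its measured mean of 3.78 in wild type muscle against, on each vehicle C2C12 array, the higher of its own reading and the lowest level of any probe well above background, and the measured C2C12 mean was -3.05. Cdkn1b did not pass (log2 0.25, adjusted p 0.0910). The dividing-cell markers Top2a, Ccnb1 and Cdk1 were well above background in vehicle C2C12 and in wild type muscle but in neither group of transgenic muscle. Of the rest of that list, Mki67 was well above background in every group, Pax7 in the muscle groups only and Myf5 in none.

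Cdkn1a had a second probe, and the 2 probes disagreed in muscle. The values above come from the brighter one, which carries the accession NM_007669 and is spotted 10 times. The other carries NM_001111099 and is spotted once, and both accessions belong to this gene. On the second probe the AP20187 arrays of transgenic muscle had -4.27 and -4.25 and the vehicle arrays -4.20 and -4.34, none well above background, against -3.20 and -3.40 in wild type muscle, both well above it. So on this probe wild type muscle was the highest of the muscle groups, at least 1.84-fold above AP20187 and at least 1.52-fold above vehicle transgenic muscle, whereas on the first probe it was the lowest. In C2C12 the second probe had -0.14 and -0.17 with AP20187, against 0.95 and 1.12 with vehicle, 2.28-fold lower, and the first was 1.25-fold lower. The direction was the same on both probes in C2C12. The second probe was not tested on its own. With both averaged, Cdkn1a passed in C2C12 (log2 -0.76, adjusted p 0.0365), did not pass for AP20187 in transgenic muscle (0.63, adjusted p 0.0889) or for vehicle transgenic against wild type muscle (0.22, adjusted p 0.498), and passed for AP20187 transgenic against wild type muscle (0.85, adjusted p 0.0211). Between AP20187 and vehicle in transgenic muscle the second probe differed by 0.01, with no array well above background. Averaging it in makes the difference there smaller whatever the transcript did, so that average cannot tell whether the probes disagree on AP20187. The files give no probe sequence, and which part of the transcript each probe reads is not known here.

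**Figure D3:**
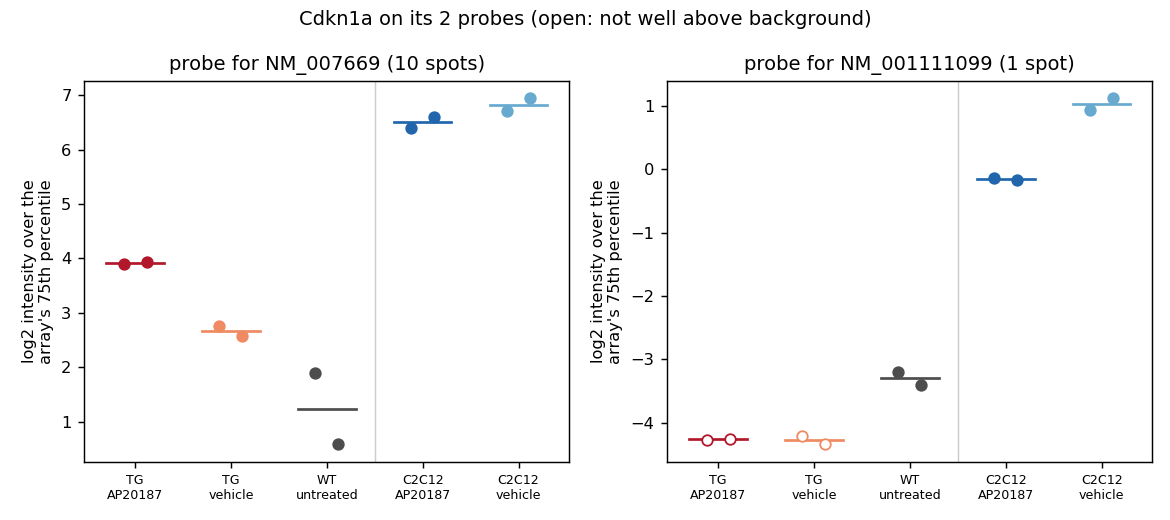
Cdkn1a on its 2 probes on every array, as log2 intensity over the array's 75th percentile (vertical axis, a separate scale for each probe), with open points for arrays not well above background and lines for group means. In muscle the order of transgenic and wild type arrays is opposite on the 2 probes, and in C2C12 both probes are lower with AP20187 than with vehicle.

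Genes that act with or above these 6 were counted list by list, and each count with AP20187 in transgenic muscle stands beside the 14.3% of all genes tested that were higher and the 15% that were lower. In the list of ATF4 and CHOP regulators and targets 17 of 21 genes rose and none fell with AP20187 in transgenic muscle. The smallest p-values belonged to Ppp1r15a, the phosphatase subunit that reverses eIF2alpha phosphorylation (16.1-fold, adjusted p 1.20e-05), Atf3 (11.0-fold, adjusted p 4.49e-05) and Ddit3 (8.54-fold, adjusted p 4.49e-05). Trib3 rose 2.79-fold and Atf4 1.31-fold. In C2C12 Ddit3 and Atf4 did not pass, with log2 differences of 0.54 and 0.30 (adjusted p 0.114 and 0.282). At an unadjusted p under 0.05, 13 of 18 genes of the list were higher and none lower. The share of all genes at that unadjusted p was not counted, here or for the lists that follow. The AP20187 change was larger in muscle for 8 of 20 by the test of the difference, with the smallest p for Ppp1r15a, Ddit3 and Ddit4. Eif2ak3, the gene of endogenous PERK, did not pass (log2 0.09, adjusted p 0.711), and whether its probe reads the fusion is not known here.

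In the p53 pathway list 14 of 23 genes rose and 3 fell. Bbc3, a cell death gene, was 5.66-fold higher, Btg2, an antiproliferative gene, 4.89-fold and Sesn2 2.97-fold. Trp53 itself was 2.45-fold higher (adjusted p 0.00516), while Mdm2, a standard p53 target, had a log2 difference of 0.24 (adjusted p 0.117) and Ccng1 was 1.46-fold lower (adjusted p 0.00866). These last 3 genes were picked out after their values were seen. Sesn2 also stands in the ATF4 list. In C2C12 none of the 22 genes tested passed. At an unadjusted p under 0.05 in limma 2 were higher and 5 lower there, unlike the rise of most of the list in muscle. In the test of the difference between muscle and C2C12, 12 of 24 p53 pathway genes had a higher AP20187 change in muscle, with the smallest p for Trp53inp1, Bbc3 and Btg2. None had a lower one by limma's adjusted p, and 2 did at an unadjusted p under 0.05.

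Of 21 factors known to act on the promoters of the 6 genes, 14 rose and none fell with AP20187 in transgenic muscle. The lists overlap, and Cebpg, for example, stands both here and in the ATF4 and CHOP list. Myc, which represses Cdkn1a and Gadd45a, was 22.6-fold higher (adjusted p 6.78e-05), Myog, a myogenic factor, 10.9-fold and Egr1, an immediate early factor, 7.06-fold. None of 20 passed in C2C12, where 6 were higher and 2 lower at an unadjusted p under 0.05. In the test of the difference the AP20187 change was higher in muscle for 7 of 22 and lower for 1. Among denervation and atrophy genes 8 of 20 rose and 2 fell, with Myog again first, Trim63, the ubiquitin ligase MuRF1, at 1.74-fold and Musk, a kinase of the neuromuscular junction, at 1.75-fold. None of 14 passed in C2C12, where 1 was higher and 4 were lower at an unadjusted p under 0.05.

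Of 17 genes between the Gadd45 proteins and p38 or JNK, 7 fell (41.2%) and 2 rose (11.8%), with Map2k6, a kinase of p38, 2.75-fold lower, Mapk14, p38 itself, 1.72-fold lower and Dusp1, a phosphatase of both, 1.88-fold lower. Of 5 other CDK inhibitors 2 fell (40%), Cdkn2c by 1.86-fold and Cdkn2d by 1.41-fold, and none rose. Among 23 cyclins, CDKs and S phase genes 3 fell (13%) and 1 rose (4.35%), both shares below those of all genes: Ccnd2 was 1.35-fold lower, Ccnd1 1.53-fold lower and Cdc25a 1.39-fold higher. Of 11 genes in the turnover of p27 and p21, 3 fell (27.3%) and 1 rose (9.09%), with Rbx1 1.75-fold lower, Fbxw7 1.71-fold lower and Pim1 2.27-fold higher. None of these 4 lists had a gene that passed in C2C12 with limma. At an unadjusted p under 0.05 there were 1 of 13 genes in the p38 and JNK list, 0 of 3 other CDK inhibitors, 3 of 22 in the cyclin list and 1 of 12 in the turnover list. All of these genes were lower with AP20187.

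**Figure D4:**
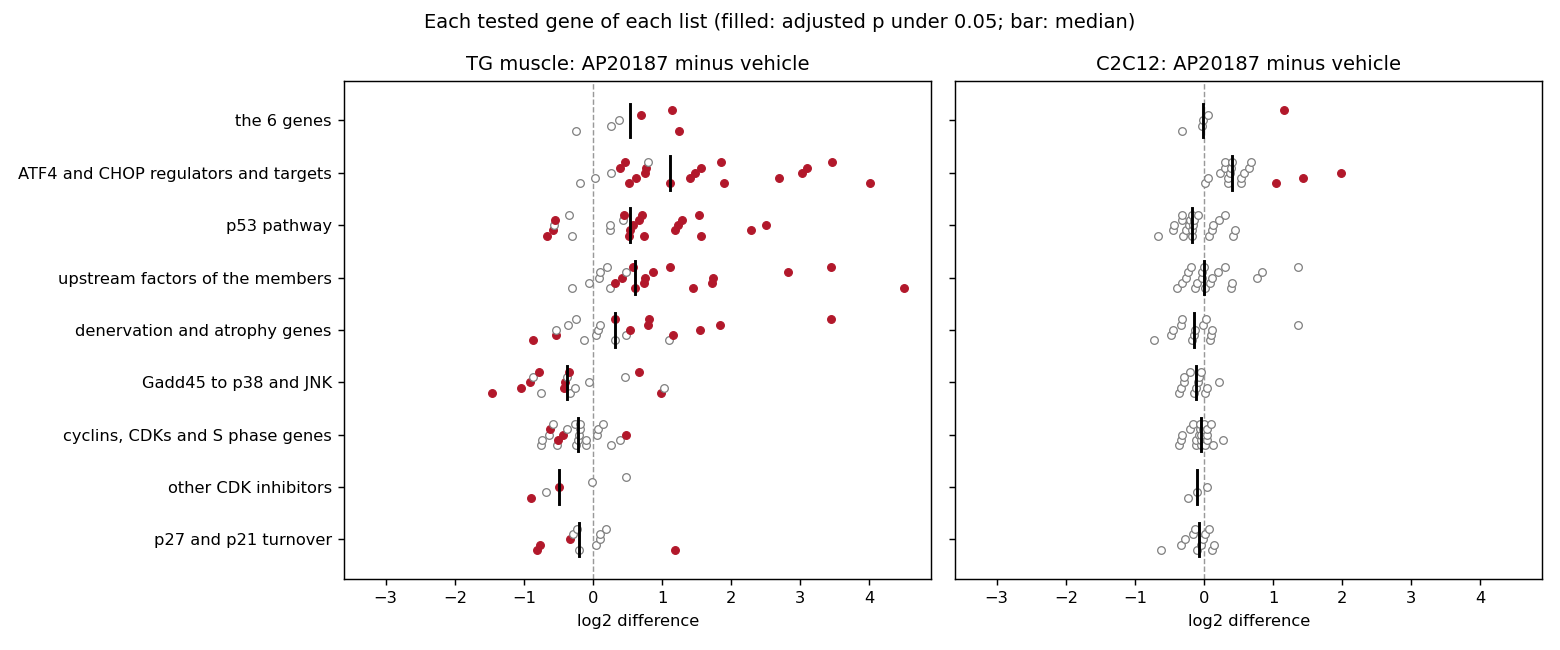
Log2 difference of AP20187 against vehicle (horizontal axis) for every tested gene of each list in transgenic (TG) muscle and in C2C12. Each point is 1 gene, filled where the adjusted p was under 0.05, and the bar is the median of the list. In muscle the ATF4 and CHOP list has a median of 1.11 and the p38 and JNK list one of -0.38, and in C2C12 the medians of the gene groups drawn lie between -0.17 and 0.40.

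Other cell types moved in muscle as well. With AP20187, 6 of 7 macrophage markers were lower in transgenic muscle, with a summed log2 level of 4.04 on both AP20187 arrays, against 4.78 to 4.96 on the vehicle arrays, and Ptprc was not well above background with AP20187. Of 7 skeletal muscle markers 2 were lower by the adjusted p and 6 at an unadjusted p under 0.05, with a summed level of 12.4 to 12.6 with AP20187, against 13.0 on both vehicle arrays. No endothelial marker of 5 passed in limma (1 at an unadjusted p under 0.05), but their summed level was 3.70 on the second AP20187 array and 5.09 on the first, against 5.30 to 5.39 with vehicle. Kdr, a receptor of endothelial cells, stood apart on that array, at 2.34, beside 4.52 on the first. Without the second AP20187 array the log2 differences of Gadd45a, Gadd45g and Cdkn1a were 0.82, 0.50 and 1.23 (adjusted p 0.0173, 0.130 and 0.0792), and Gadd45a alone of the 3 passed. Among markers of myoblasts and dividing cells, Mki67 was 4.16-fold and Pax7 2.04-fold lower in vehicle transgenic than in wild type muscle. Top2a, Ccnb1 and Cdk1 were not well above background in transgenic muscle and entered the test through wild type muscle alone. Their passing there is therefore not counted. As bounds, they were at least 1.55-fold, 2.07-fold and 1.03-fold lower with vehicle than in wild type. The part of these cell type markers in the changes of the 6 genes was not tested. In vehicle transgenic against wild type muscle, where 25.7% of all genes were higher and 12.6% lower, 16 of 21 ATF4 and CHOP genes were higher (76.2%) and 2 lower (9.52%). In the p53 pathway list 6 of 23 were higher (26.1%) and 2 lower (8.70%), near the shares of all genes. Of 21 factors above the 6 genes 3 were higher (14.3%) and 8 lower (38.1%). Among 23 cyclins, CDKs and S phase genes 4 were higher (17.4%) and 8 lower (34.8%). Ccnb2 was at least 8.64-fold lower in vehicle transgenic muscle, where it was not well above background (adjusted p 0.000435 in limma). Genes such as Ccnb2 and Ccnb1 entered this test through wild type muscle alone, so the count of lower genes is not read further.

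Over the 6 muscle arrays the level of Gadd45a correlated with Cdkn1b at r = 0.96, with Cdkn1a at r = 0.90 and with Gadd45b at r = 0.86, and Cdkn1a with Cdkn1b at r = 0.87. Gadd45g had r = -0.58 with Gadd45a, and Cdkn1c had r between -0.58 and -0.23 with the others. Arrays of a group share their treatment and session, so these values describe the 3 muscle groups more than 6 separate samples. In C2C12, with 4 arrays, no correlation was computed, and there Gadd45a was higher with AP20187 while the levels of Cdkn1a were lower and those of Cdkn1b overlapped.

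Over all 10 arrays, after the mean of the 6 muscle arrays and that of the 4 C2C12 arrays were subtracted, the closest of 13363 patterns to Gadd45a were those of Srsf3 (r = 0.991), a splicing factor, Cth (r = 0.990), the enzyme that makes cysteine from cystathionine, and Leprotl1 (r = 0.988). Cth differed by 0.96 with AP20187 in transgenic muscle, by 1.36 in C2C12 and by 3.56 between vehicle transgenic and wild type muscle. Closest to Gadd45g were Slc38a6 (r = 0.974), Kif20a (r = 0.961) and Trim24 (r = 0.959), with log2 differences of -0.84, -1.07 and -0.46 between vehicle transgenic and wild type muscle. For Cdkn1a they were N4bp2 (r = 0.982), Bri3bp (r = 0.974) and Tbc1d25 (r = 0.973), and for Cdkn1b Rhobtb3, Lmo4 and Nup37 (r = 0.979, 0.979 and 0.978). None is given for Gadd45b, with a value missing, or for Cdkn1c, which was not well above background in C2C12.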

How the data were processed

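The scanner files hold spot intensities on a linear scale from which Agilent Feature Extraction (version 10.7.1.1) had already taken the background, per the file headers and the submitters' processing notes. The log2 table deposited by the authors was used as an alternative. Its differences between arrays followed the scanner values at r of 0.9998 or more, its direction is theirs, and how it was centred is not known. Its column medians lay between -0.58 and 0.80. Control spots and outlier-flagged spots were left out, spots of a probe were averaged on the log2 scale, and each array's 75th percentile over gene spots was subtracted. Symbols came from RefSeq accessions (GRCm38.p6). Where a gene had more than 1 probe, the brightest with a value on every array stood for it. A gene was tested where both arrays of some group showed its probe well above background. Tests were limma 3.58.1 in R 4.3.3 (lmFit, eBayes with trend), with Benjamini-Hochberg adjustment over all genes tested, and were tried on simulated data. Muscle (6 arrays), C2C12 (4) and all 10 arrays formed 3 fits. Whether replicate numbers pair the arrays is not known, and the main fits did not pair them. Same-numbered deviations correlated at 0.04, 0.12 and 0.14 in muscle and 0.06 in C2C12. Arrays limit precision by their number, 2 a group. No array pair held identical values. The 6 genes, the gene lists (ATF4 and CHOP, p53, factors above the genes, denervation and atrophy, p38 and JNK, other CDK inhibitors, cyclins and S phase, turnover of p27 and p21, and cell type markers), the tests and the motifs were chosen with earlier results of these data known. Named beside the 6 genes are the 3 members of each list with the smallest p that passed, the 3 genes most like each in pattern (none for Gadd45b and Cdkn1c), and Eif2ak3, Atf4, Ddit3, Trib3, Atf3 and Myc. Trp53, Mdm2 and Ccng1 and the cell type markers named were chosen after their values were seen.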

Additional observations from a re-analysis of the deposited data

Results flagged for a closer look

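The AP20187 change of Cdkn1a was larger in transgenic muscle than in C2C12, by 1.57 on the log2 scale (adjusted p 0.0405 in limma), a difference between muscle and culture that the test of the difference itself picked out. On the brighter probe, Cdkn1a was higher with AP20187 on 2 of 2 muscle arrays and lower on 2 of 2 C2C12 arrays. Groups did not overlap, in either direction, for 68.4% of all genes tested in transgenic muscle and 46.6% in C2C12. The C2C12 change itself did not pass (adjusted p 0.312 in limma), and the difference passed under 7 of 20 alternative settings. The second Cdkn1a probe was not well above background on any transgenic muscle array.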

How the results depend on the processing

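Gadd45a kept its direction and passed in every alternative for AP20187 transgenic against wild type muscle and for vehicle transgenic against wild type muscle (16 of 16 each), as did Gadd45b, Cdkn1a and Cdkn1b in the first of these and Gadd45g in the second. The number of the 6 genes that passed for AP20187 in transgenic muscle, 3, was 1 with the deposited log2 values, 1 with no filter on dim probes, 1 without a variance trend and 5 with the replicate number as a block, and between 0 and 3 when 1 array was left out. For vehicle transgenic against wild type muscle it was 2 with the deposited values, in place of 4, and between 2 and 5 with 1 array left out. In C2C12 it was 0 with the deposited values and without a trend and 2 with the mean over probes, in place of 1. For the muscle minus C2C12 difference the count includes Cdkn1c, whose C2C12 readings were not well above background, and it was 0 under quantile normalization, with deposited values and without a trend, 1 without a filter and with the percentile over unflagged spots, in place of 2, and between 0 and 2 with 1 array left out. Over all genes, AP20187 in transgenic muscle had 3964 calls, and 1869 to 3273 with 1 array left out, fewest without the second vehicle array. Vehicle transgenic against wild type muscle had 5184, and 3149 to 5199. In C2C12 the 60 calls became 330 with normexp, 21 with deposited values, 147 without a filter, 126 with the mean over probes, 104 with the replicate block, 32 without a trend, 239 with the percentile over unflagged spots, 139 with all 10 arrays in the fit and 13 to 236 with 1 array left out, fewest without the second vehicle array. The difference had 1695, then 3181 with normexp and 936 to 1680 with 1 array left out. The share of calls that were higher moved with the scaling: for AP20187 in transgenic muscle 48.9%, then 63.2% with quantile normalization, 61.1% with the percentile over detected probes and 62.5% with deposited values; for vehicle transgenic against wild type 67.1%, then 53.2% (quantile) and 39.2% (detected); for AP20187 transgenic against wild type 56.6%, then 43.8% (detected); in C2C12 61.7%, then 75.4% (quantile), 79.7% (detected), 85.7% (deposited), 93.7% (unflagged) and 47.0% (normexp); for the difference 66.6%, then 51.1% (normexp) and 30.5% (unflagged). With the detected percentile the median of all genes for vehicle transgenic against wild type muscle was -0.13, in place of 0.09, and no gene of the 6 that passed changed direction. Values near 0 that did not pass changed sign: Cdkn1c for vehicle transgenic against wild type muscle, -0.167 with quantile normalization, -0.174 with the detected percentile and -0.14 to 0.217 with 1 array left out; in C2C12, Cdkn1b, 0.0496 (quantile), 0.0818 (detected), 0.19 (unflagged) and -0.123 to 0.0852 with 1 array left out, Gadd45g, 0.0998 (quantile), 0.0711 (detected), 0.179 (unflagged) and -0.137 to 0.0781, and Gadd45b, -0.041 (deposited), -0.0205 (flagged spots kept), -0.033 (replicate block) and -0.033 to 0.158; and the Gadd45a difference, 0.0222 (normexp), 0.0403 (deposited) and -0.343 to 0.291. In all, 517 values kept their side, 57 no longer passed, 9 newly passed and 24 changed sign. The cause of these changes was not tested, save that a fit with fewer arrays has less to estimate the spread from. With 1 array left out, the lone array of its group is assumed to vary like the others. The replicate block moved the 3964 calls to 5593. Slide and scan session as blocks were not run, since each group lies in 1 session and the slide code is shared by arrays of different content (r of 0.83 and 0.80 for arrays recorded at the same position). Normexp used the median signal, and this and the unflagged percentile were chosen after seeing the data.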
